A study of Mus musculus with 10 samples.

Results

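The comparison was between AHR KO and WT mouse colon organoids after differentiation, and it used the 5 libraries labelled d4 ENR (3 WT and 2 AHR KO) of 10 libraries in all. AHR KO organoids came from Villin-Cre *Ahr* fl/fl mice, in which Cre under the villin promoter deletes the floxed (tm1c) allele in the gut epithelium. WT organoids came from littermates, all on a C57BL/6 background, and the age of the animals is not given in the sources used here. Crypts of the whole colon were grown in Matrigel in WENR, a medium with EGF, Noggin, R-spondin1, Wnt3a-conditioned medium, SB202190, A83-01 and nicotinamide. They were then kept for 4 days in ENR, which lacks the last 4 of these, to induce differentiation. Each library is an Omni-ATAC-seq reaction, in which a transposase cuts and tags open chromatin, on 50000 sorted live cells. The labels number the replicates but do not say that they came from separate animals, so p-values measure the spread between these libraries, which may be technical.

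AHR, the aryl hydrocarbon receptor, is a transcription factor that is held in the cytoplasm until a ligand binds it, then pairs with ARNT and induces enzymes of xenobiotic metabolism such as *Cyp1a1*. In the colon epithelium, stem cells at the crypt base depend on Wnt, and their progeny mature into absorptive colonocytes, mucus-secreting goblet cells, enteroendocrine cells and tuft cells under factors such as CDX2 and HNF4A. After injury the epithelium can enter a fetal-like repair state in which the coactivator YAP acts through TEAD factors, with targets such as *Ccn1* (*Cyr61*) and *Ccn2* (*Ctgf*).

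Peaks of any d4 ENR library fell into 66344 consensus regions, and 29185 of these were called in all 5 libraries. The height of a region is the pileup of its highest peak, the number of fragments stacked over the peak. It was set to a common distribution in the 5 libraries (normalized height) before the genotypes were compared with limma, and differences are log2 AHR KO minus WT. Over these 29185 regions 2 were higher in AHR KO (0.00685%) and 10 were lower (0.0343%) at an adjusted p under 0.05. At 16.7% of regions the lower AHR KO library was above the highest of the 3 WT libraries, and at 13.7% the order was the reverse. Among the libraries left out in turn, WT replicate 1, described with its values below, changed the number of calls most. Leaving out WT replicate 3 also added calls, while none passed without WT replicate 2 (unadjusted p under 0.05 by limma at 4566 and 1909 regions). Leaving out either AHR KO library leaves that genotype without a replicate, and calls fell. Some other settings, such as a block for the replicate number, gave more calls still, as listed at the end. Without WT replicate 1 416 regions were higher (1.43%) and 533 lower (1.83%), and all 12 regions that passed with it passed again. The genotypes then did not overlap at 26.6% (above) and 24.0% (below). Such shares rose with each library left out, since fewer values are compared. They were 20.4% and 17.3% without WT replicate 2 and 24.5% and 22.9% without WT replicate 3. In organoids that hold several cell types, fewer cells of a type and less open chromatin per cell cannot be told apart.

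Windows of 150 bases are printed first (GRCm38.p6, plus strand), since the results turn on the regions they come from. The first 3 are from regions that passed the test, the next 3 from regions of a Hippo pathway factor, a YAP/TEAD target and a fetal-like gene, and the last 2 from regions of colonocyte genes. Capitals mark CATTCC (TEAD; GGAATG where it lies on the other strand), TGANTCA (AP-1) and TNGCGTG (AHR:ARNT), searched on both strands. Each window is centred on the match to one of these motifs nearest to the middle of its region, or on the middle itself where there was none, as in the first.

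chr12:20196844-20196993, the region with the lowest p: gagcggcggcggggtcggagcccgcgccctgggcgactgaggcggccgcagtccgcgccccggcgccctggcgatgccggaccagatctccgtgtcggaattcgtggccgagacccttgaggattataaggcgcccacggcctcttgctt
*Tmem30b*, chr12:73537734-73537883: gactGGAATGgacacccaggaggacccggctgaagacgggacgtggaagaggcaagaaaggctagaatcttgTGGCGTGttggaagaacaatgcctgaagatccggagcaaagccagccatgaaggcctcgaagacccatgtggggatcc
*Hif1a*, chr12:73872574-73872723: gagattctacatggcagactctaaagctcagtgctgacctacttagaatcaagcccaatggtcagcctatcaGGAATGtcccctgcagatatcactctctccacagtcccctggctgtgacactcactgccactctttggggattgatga
*Tead1*, chr7:112826092-112826241: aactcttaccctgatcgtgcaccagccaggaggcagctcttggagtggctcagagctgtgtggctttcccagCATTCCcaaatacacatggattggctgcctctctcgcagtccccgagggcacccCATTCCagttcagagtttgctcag
*Ccn2*, chr10:24591903-24592052: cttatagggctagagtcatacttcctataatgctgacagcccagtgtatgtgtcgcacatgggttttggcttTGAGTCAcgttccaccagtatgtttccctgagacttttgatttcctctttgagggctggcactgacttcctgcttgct
*Ly6a*, chr15:74992282-74992431: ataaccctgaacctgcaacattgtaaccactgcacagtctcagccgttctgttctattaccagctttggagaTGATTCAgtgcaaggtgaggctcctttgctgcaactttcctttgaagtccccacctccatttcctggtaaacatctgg
*Slc26a3*, chr12:31428889-31429038: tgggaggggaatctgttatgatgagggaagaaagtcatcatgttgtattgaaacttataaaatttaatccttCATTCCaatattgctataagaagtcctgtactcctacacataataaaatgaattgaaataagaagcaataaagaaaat
*Krt20*, chr11:99459084-99459233: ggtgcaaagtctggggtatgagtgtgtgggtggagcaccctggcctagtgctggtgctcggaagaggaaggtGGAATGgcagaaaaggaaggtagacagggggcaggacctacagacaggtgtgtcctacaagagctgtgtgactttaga

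The libraries differed between the genotypes before any single region was compared. Between 30354729 and 36307860 fragments lay behind the peaks of a library. Peaks held 14.1%, 24.4% and 30.9% of the coverage in WT replicates 1, 2 and 3 and 33.8% and 44.2% in AHR KO replicates 1 and 2, so the genotypes did not overlap. The mean fragment of a WT library measured 200, 156 and 172 bp, and that of an AHR KO library 221 and 202 bp. WT replicate 1 stood apart, with 33433 peaks against 47898 to 58359 in the other 4 libraries. The SD over regions of the log2 difference in normalized height was 0.260 between WT replicates 2 and 3 and 0.245 between the AHR KO libraries. It was 0.346 and 0.409 for WT replicate 1 against the other WT libraries. Between genotypes it ran from 0.270 (WT replicate 3 with AHR KO replicate 2) to 0.393 (WT replicate 1 with AHR KO replicate 1). Some pairs of unlike genotype were thus closer than WT replicate 1 was to the other WT libraries. All 10 epithelial markers, among them *Epcam*, *Cdh1*, *Vil1* and *Cdx2*, had a start region (the highest region touching the window from 1 kb upstream to 100 bp downstream of any of a gene's starts) called in all 5 libraries. Of 27 markers of immune, endothelial, mesenchymal, muscle and glial cells, 20 had no start region in any of the 5 and 3 had one in all 5, and the number with one was 3, 7 and 7 in WT and 6 and 7 in AHR KO.

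**Figure D1:**
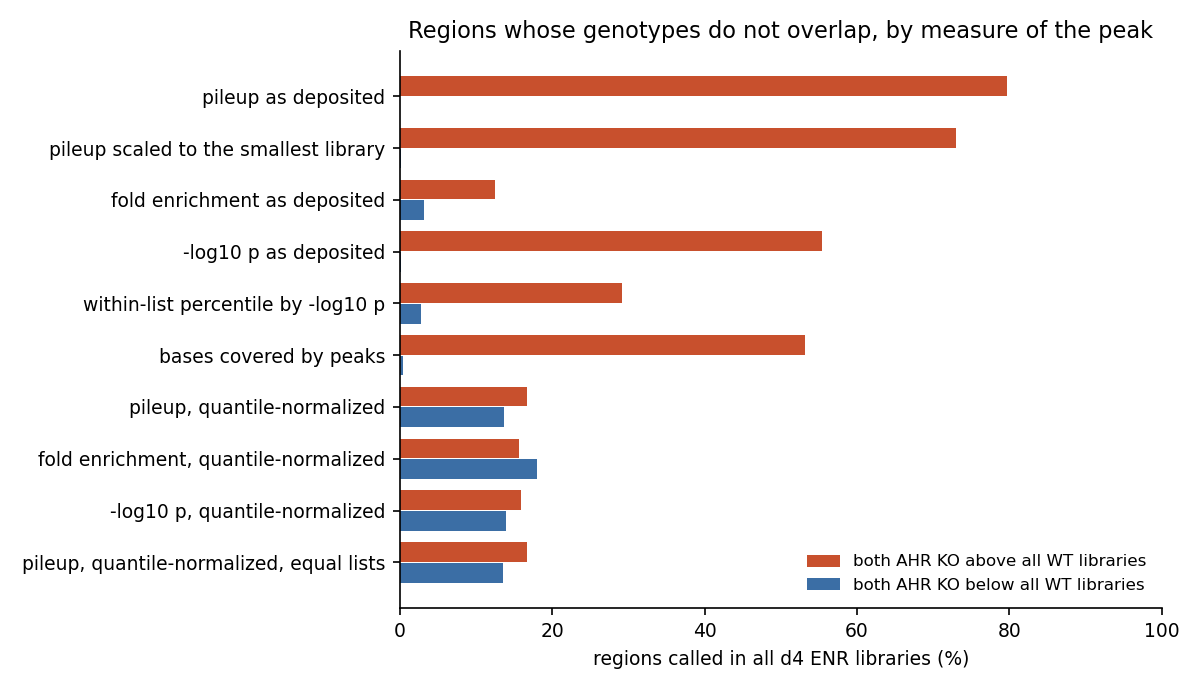
Share of the 29185 regions called in all 5 libraries with both AHR KO values above (or below) the 3 WT values, in percent, for each measure of the peaks (the lowest pair of bars, with lists of equal length, is over 24181 regions). The excess above WT that the deposited pileup shows (79.7% against 0.0822%) cannot appear in normalized height (16.7% against 13.7%), which gives the 5 libraries the same distribution.

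How many regions stood higher in AHR KO depended on the measure. The median pileup as deposited was 24.4, 28.7 and 39.9 fragments in WT and 49.2 and 60.3 in AHR KO, and 79.7% of regions lay above all WT libraries. Scaled to the number of fragments of the smallest library the share was 73.0%, with a median difference of 0.68. The MACS −log10 p had medians of 8.44, 14.2 and 19.2 in WT and 20.2 and 27.1 in AHR KO, and 55.4% of regions lay above.

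Fold enrichment, the pileup over the background around the peak in the same library, had medians of 3.49, 4.95 and 5.12 in WT and 4.55 and 5.16 in AHR KO. By this measure 12.5% of regions lay above all WT libraries and 3.22% below, so the genotypes were much less parted than by pileup. The rank of a peak within its own list by −log10 p, as a percentile, had medians of 55.8, 68.7 and 72.8 in WT and 70.2 and 74.7 in AHR KO. These medians followed the length of the list, from 33433 peaks (55.8) to 58359 peaks (74.7). A shared region can rank higher in a longer list, so rank was not free of list length. By rank 29.2% of regions lay above and 2.85% below, and no region passed the test with limma in either direction (0.0% each). By limma 2272 regions (7.78%) were under an unadjusted p of 0.05 by rank, and 3374 (11.6%) by normalized height. Regions were also wider in AHR KO, with a median of 1093 and 1071 bp covered by peaks against 770, 808 and 939 bp in WT. The plot of the measures shows this order from pileup to normalized height, the measure used from here on.

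The median difference over 8873 promoter regions (1 kb upstream to 100 bp downstream of a start) was 0.00, with 16.2% above and 12.1% below, and 1 promoter region passed in each direction (0.0113% each). Intergenic regions lay above at 16.0% and below at 15.8%. With regions parted by width into 5 classes of equal number, the median of the narrowest class was −0.05, with 9.56% above and 17.5% below. That of the class next to the widest was 0.04, with 22.2% above and 11.6% below.

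The 2 higher regions were a promoter of a transcript on chromosome 12 with no protein-coding start within 100 kb, and a region 30332 bp from the start of *Spp2*, which encodes a secreted phosphoprotein of bone matrix. The 10 lower regions included those near *Kcnf1*, a potassium channel subunit, *Tmem30b*, a subunit of phospholipid flippases, and *Hif1a*, the oxygen-regulated transcription factor. Of the 12, 5 lay on chromosome 12, which carries *Ahr*, and 3 were mostly masked repeats, from 51.9% to 97.3% of their length.

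The region with the lowest p was chr12:20196146-20197693, from which the first window is printed. Its normalized height was 33.5, 29.6 and 33.3 fragments in WT and 111 and 99.1 in AHR KO. Both AHR KO libraries were far above WT, whose values lay close together, and the difference of 1.71 (SE 0.16) had an adjusted p of 0.00113 by limma with Benjamini-Hochberg adjustment. In WENR, where other libraries of both genotypes were compared, it was higher by 1.17 (adjusted p = 0.00357).

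The *Spp2* region (chr1:88437013-88438464, intergenic) had 16.1, 16.8 and 20.9 fragments in WT and 48.0 and 39.5 in AHR KO. AHR KO was higher by 1.29 (SE 0.20, adjusted p = 0.0457), near the threshold. In WENR its difference was 0.26 (adjusted p = 0.473).

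*Tmem30b* had its region at chr12:73537650-73539444, intergenic and 7845 bp from the start, with 39.3, 43.0 and 51.4 fragments in WT and 16.4 and 17.4 in AHR KO. The AHR KO libraries lay close together and below all WT values, with a difference of −1.39 (SE 0.20, adjusted p = 0.031). The region was lower in WENR too, by −1.04 (adjusted p = 0.0202). The window printed from it holds a match to the AHR:ARNT motif and one to the TEAD motif.

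The region given to *Hif1a* (chr12:73871890-73874141) lay 28360 bp from the nearest start of that gene. It was classed as intron by genes of any type, so the intron need not be one of *Hif1a*. WT had 43.6, 39.5 and 41.0 fragments and AHR KO 16.5 and 19.3, again without overlap, a difference of −1.21 (SE 0.19, adjusted p = 0.044). In WENR the difference was −1.74 (adjusted p = 0.00679). By fold enrichment in place of pileup the d4 ENR difference was 0.00, so AHR KO was lower here in height and not in height over the local background.

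*Kcnf1* (chr12:17175699-17176952, exon) had 27.3, 37.2 and 32.4 fragments in WT and 11.2 and 13.2 in AHR KO, and was lower by −1.39 (SE 0.20, adjusted p = 0.031). It was called in 4 of the 5 WENR libraries and was not tested there. The region chr12:20614494-20615840, with no protein-coding start within 100 kb, had 62.9, 49.6 and 62.2 fragments in WT and 20.8 and 26.0 in AHR KO. Its difference was −1.31 (SE 0.19, adjusted p = 0.031), the reverse of the direction at the region with the lowest p on the same chromosome.

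The 3 regions rich in repeats were all lower. They lay near *Gm21860* on chromosome Y, *Rnf157* on chromosome 11 (79.8% masked) and *Gm11168* on chromosome 9 (97.3% masked), with differences of −1.38, −1.32 and −1.13. Chromosome Y had 6 regions in all, with a median difference of −1.02 and AHR KO below all WT at 5, and 4 of the 6 were lower without WT replicate 1. At *Gm11168* the height was 294, 309 and 215 fragments in WT and 146 and 104 in AHR KO. Reads from copies of a repeat can be placed at any of them, so heights at these regions are uncertain.

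Smaller differences were found in intron regions nearest to the starts of *Satl1* (−0.92, SE 0.13, adjusted p = 0.031), *Sfi1* (−0.74, SE 0.11, adjusted p = 0.031) and *Saysd1* (−0.68, SE 0.11, adjusted p = 0.048). These regions were tall, with 160 to 261 fragments in the WT libraries and 88.5 to 148 in AHR KO. At *Sfi1* the height stood on a high local background. Its fold enrichment as deposited was 1.68, 2.06 and 2.01 in WT and 1.74 and 2.25 in AHR KO. By fold enrichment the difference at *Sfi1* was 0.11, and by summed coverage that at *Saysd1* was 0.13, so the direction at both depended on the measure.

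**Figure D2:**
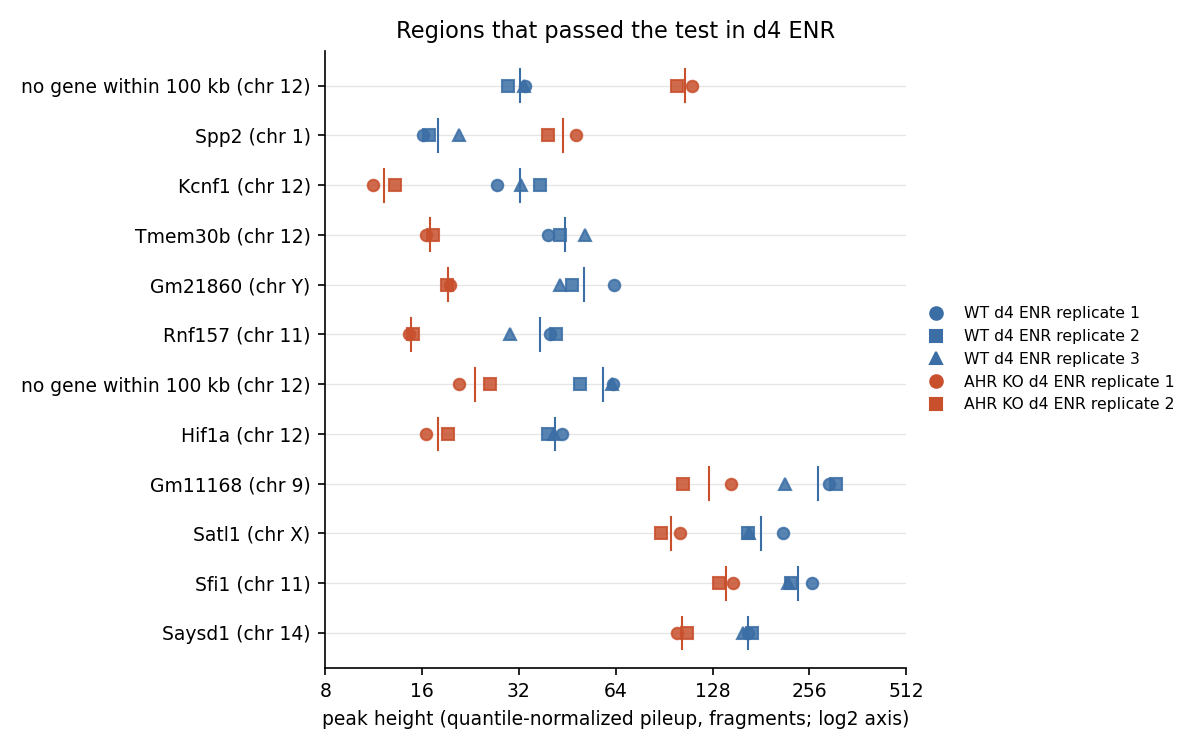
Normalized height in fragments (log2 axis) of each of the 5 d4 ENR libraries at the 12 regions that passed, with a vertical tick at the mean of each genotype. Both AHR KO points are above WT at the top 2 regions and below WT at the other 10, and the genotypes do not overlap, as the rule for naming regions required.

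The next lowest p with both AHR KO libraries above WT were those of 8 regions, with adjusted p from 0.0605 to 0.115. Among them were 2 regions at *Rock2*, a kinase that acts on the actin cytoskeleton (1.09, adjusted p = 0.0605, and 1.36, adjusted p = 0.0683). Others were near *Ltbp2*, a latent TGF-β binding protein (1.15, adjusted p = 0.0668), and *Dynlt1b*, a dynein light chain (1.01, adjusted p = 0.0645). All 8 passed without WT replicate 1.

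Chromosome 12, which carries *Ahr*, was then taken by itself. Without WT replicate 1, 19 of its 1071 regions were higher and 49 lower (6.35% together), against 3.25% of all regions. Within 15 Mb of *Ahr*, 20 of 176 regions were lower and 3 higher (13.1%). Over all 5 libraries AHR KO lay below all WT at 29.5% of these 176 regions and above at 19.3%, against 13.7% and 16.7% of all regions.

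WENR and d4 ENR share no library, and their differences are set side by side. The labels use the same replicate numbers in both media and do not say whether such libraries came from the same organoids, so the media may not be independent. Each of the 5 WENR libraries had a peak at 11 of the 12 regions that passed in d4 ENR. Of these, 9 had the same direction there without overlap (the background in WENR was 16.4% above and 16.2% below), and 7 passed (backgrounds 0.0976% higher and 0.17% lower). Over 28205 regions called in all 10 libraries the Pearson correlation of the differences was 0.04, as a description across regions of the same libraries. Over 1024 regions of chromosome 12 it was 0.36 (Spearman 0.15), and on the other chromosomes it ran from −0.05 on chromosome 16 to 0.13 on chromosome X. Leaving out the regions of chromosome 12 with a d4 ENR difference of 1 or more, it was 0.29 over 1016 (Spearman 0.13). Whether sequence near *Ahr* that came with the targeted allele has a part in this was not tested.

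**Figure D3:**
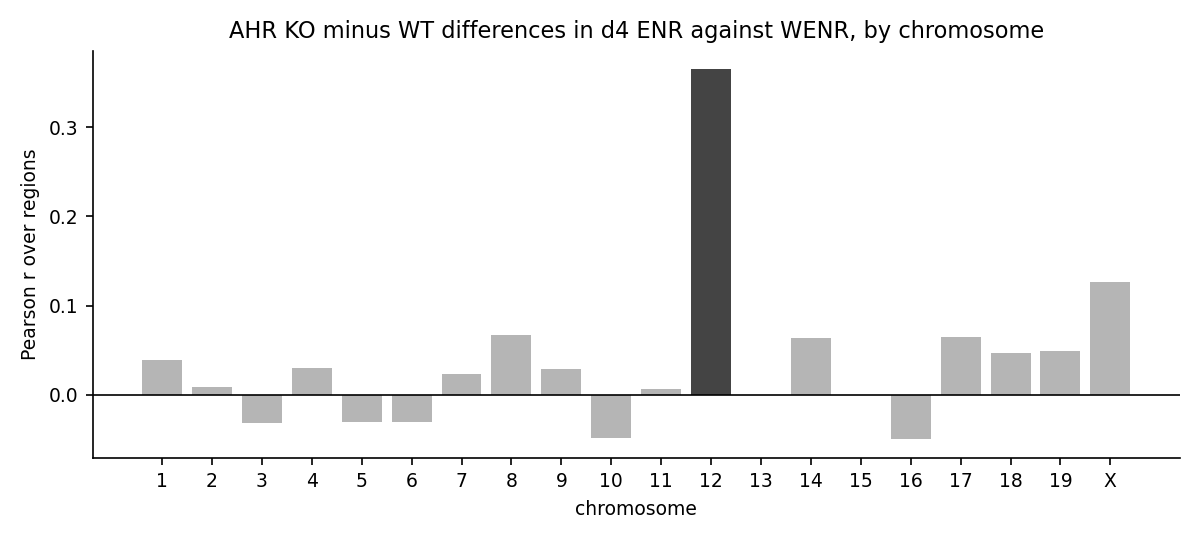
Pearson correlation across regions of the AHR KO minus WT difference in d4 ENR with that in WENR, for each chromosome. Chromosome 12, which carries *Ahr*, is at 0.36, and every other chromosome is between −0.05 and 0.13.

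*Ahr* itself (chromosome 12, 35497974 to 35535038, minus strand) kept its promoter region in all 5 libraries. The normalized height at chr12:35534094-35535580 was 91.9, 103 and 98.7 fragments in WT and 96.5 and 94.5 in AHR KO. The values overlapped, and the difference was −0.04 (SE 0.13, adjusted p = 0.942). Pileup as deposited was 64.6, 76.3 and 96.4 against 123 and 145. Peak lists cannot show the deletion, and they neither check nor contradict the labels.

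Regions whose nearest start was that of *Ahr* differed in both directions. One at chr12:35481662 had 26.7, 23.0 and 34.1 fragments in WT and 53.7 and 42.3 in AHR KO, a difference of 0.79 (SE 0.21, adjusted p = 0.246, and 0.0284 without WT replicate 1). Another at chr12:35459509 had 23.8, 32.6 and 27.1 in WT and 13.7 and 19.4 in AHR KO, a difference of −0.76 (SE 0.22, adjusted p = 0.263, and 0.0188 without WT replicate 1).

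Genes of the AHR pathway held 34 regions, of which none passed with all 5 libraries and 4 were higher and 2 lower without WT replicate 1, against 1.43% and 1.83% of all regions. Their median was 0.04 with all libraries and −0.02 without WT replicate 1. The 4 higher regions were given to *Ahr* (the first above), *Tiparp*, *Nfe2l2* and *Lpp*, and the 2 lower to *Ahr* (the second above) and *Lpp*. *Tiparp*, a poly-ADP-ribose polymerase induced by AHR, had 91.6, 88.5 and 93.1 fragments at its promoter in WT and 126 and 116 in AHR KO. Both AHR KO values were above the narrow range of WT, with a difference of 0.41 (SE 0.12, adjusted p = 0.28). Without WT replicate 1 it was 0.40 and passed (adjusted p = 0.0439). *Nfe2l2*, which encodes NRF2, the regulator of antioxidant genes, had 143, 137 and 147 fragments at its promoter in WT and 177 and 179 in AHR KO. The difference was 0.33 (SE 0.10, adjusted p = 0.295), and passed without WT replicate 1 (0.33, adjusted p = 0.0451).

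*Cyp1b1*, a cytochrome induced by AHR, had a region at chr17:79713459 with 62.4, 63.8 and 58.9 fragments in WT and 40.0 and 46.4 in AHR KO. This difference of −0.52 (SE 0.16) had an adjusted p of 0.291 with all libraries and 0.0701 without WT replicate 1. In WENR it was −0.46 (adjusted p = 0.0658). *Cyp1a1*, the best known AHR target, had as its start region one inside the gene (chr9:57696037-57697156, intron), with peaks of 13.5 and 15.5 fragments in WT replicates 2 and 3, of 17.2 in AHR KO replicate 2 and none in the other libraries.

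Genes were grouped in 19 lists, and no region of any list member passed with limma over all 5 libraries, while 143 of 886 (16.1%) were under an unadjusted p of 0.05, against 11.6% of all regions. These regions lay above WT at 26.9% and below at 12.1%, against 16.7% and 13.7% of all regions, and their median difference was 0.06 against 0.00. They were also wider than all regions, with a median of 1560.5 bp against 1377 bp. Without WT replicate 1, 27 were higher (3.05%, against 1.43% of all regions) and 16 lower (1.81%, against 1.83%), and at 37 of these 43 the genotypes did not overlap over all 5 libraries, as at 725 of the 949 regions so called among all. Over 14 alternative normalizations, measures, filters and left-out libraries, the median kept its sign in 3 lists (Wnt and stem cell, absorptive, gastric and oesophageal genes). It changed sign in at least 1 alternative in 16. The median of all regions moved as well, from −0.05 with median centring to 0.00, and was not subtracted.

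**Figure D4:**
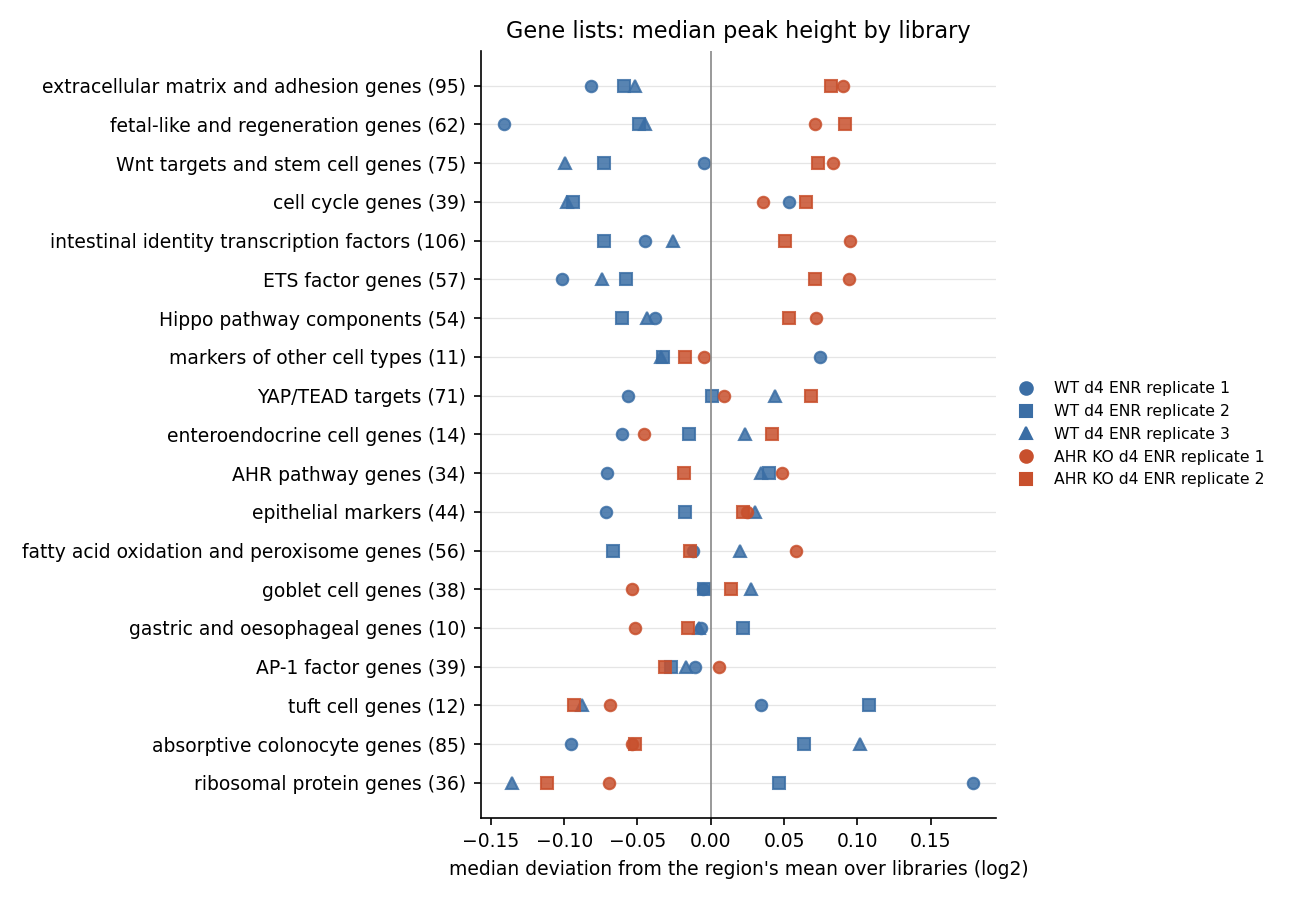
Median, over the regions of each gene list, of the deviation of a library from the mean of the region over the 5 libraries (log2 of normalized height), with 1 point per library and the number of regions in brackets. For extracellular matrix genes the WT points are at −0.08, −0.06 and −0.05 and the AHR KO points at 0.09 and 0.08, while for absorptive genes WT replicate 1, at −0.10, lies below both AHR KO points.

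YAP/TEAD targets held 71 regions with a median of 0.06, and AHR KO lay above at 23.9% and below at 14.1%. The sign of the list's median turned with median centring (−0.05), under which the median of all regions was −0.05 too. It also turned when peaks under a −log10 q of 5 were dropped (−0.06, against 0.00 over all regions). Leaving out WT replicate 1, 4 of the 71 were higher and none lower, against 1.43% and 1.83% of all regions. *Ccn1*, a matricellular protein and classical target, had 39.0, 36.3 and 30.4 fragments at its promoter in WT and 49.2 and 52.0 in AHR KO. AHR KO was above WT in both libraries, with a difference of 0.53 (SE 0.18, adjusted p = 0.314) that passed without WT replicate 1 (0.61, adjusted p = 0.048).

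*Ccn2*, its relative, had 39.6, 27.5 and 31.0 fragments at its promoter in WT and 45.7 and 33.8 in AHR KO, values that overlapped (0.28, SE 0.21, adjusted p = 0.63). The region 3327 bp away (chr10:24591285-24592945), from which a window is printed, had 46.3, 35.6 and 42.5 in WT and 63.9 and 56.2 in AHR KO. It did not overlap (0.54, SE 0.18, adjusted p = 0.308), passed without WT replicate 1 (0.61, adjusted p = 0.035), and holds 2 matches to the AP-1 motif and none to CATTCC.

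*Ptpn14*, a phosphatase that restrains YAP, had 41.5, 28.6 and 26.8 fragments at its promoter (chr1:189727346-189728836) in WT and 61.5 and 48.4 in AHR KO. Here WT replicate 1 was above the other WT libraries, and the difference was 0.78 (SE 0.22, adjusted p = 0.248) with it and 0.98 (adjusted p = 0.00275) without it. *Amotl2*, an angiomotin that binds YAP, had 68.9, 88.4 and 78.0 at its promoter in WT and 104 and 103 in AHR KO (0.41, SE 0.14, adjusted p = 0.322). A region at chr9:102777587 nearest to the same gene went the other way, with 42.4, 49.1 and 41.0 in WT and 29.5 and 31.4 in AHR KO (−0.53, SE 0.18, adjusted p = 0.313).

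Components of the Hippo pathway, which restrains YAP, held 54 regions with a median of 0.10, of which 33.3% lay above WT and 7.41% below. *Tead1*, a partner of YAP, had an intronic region (chr7:112825355-112826943) with 67.8, 64.3 and 62.3 fragments in WT and 101 and 93.7 in AHR KO. The spread within each genotype was small, and the difference of 0.59 (SE 0.14) had an adjusted p of 0.2 with all libraries and 0.00885 without WT replicate 1. The region holds 3 matches to CATTCC, 2 of which are in the window printed. *Lats2*, a kinase that phosphorylates YAP, had 15.8, 20.8 and 15.1 in an intron in WT and 34.3 and 24.8 in AHR KO (0.77, SE 0.22, adjusted p = 0.26, and 0.0526 without WT replicate 1).

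Fetal-like and regeneration genes held 62 regions with a median of 0.15, and 40.3% lay above WT against 11.3% below. When WT replicate 1 was left out, 1 of the 62 regions (*Ly6a*) was higher and 2 were lower, against 1.43% and 1.83% of all regions. The lower were those of *Areg*, amphiregulin (−0.82, adjusted p = 0.00793), and *S100a6*, a calcium-binding protein (−0.41, adjusted p = 0.0383). The library medians of the deviation from the mean of each region were −0.14, −0.05 and −0.04 in WT and 0.07 and 0.09 in AHR KO. *Ly6a*, which encodes Sca-1, had 41.9, 34.7 and 31.2 fragments at its promoter in WT and 40.5 and 39.8 in AHR KO, so the genotypes overlapped (0.17, SE 0.19, adjusted p = 0.759). Its region 5170 bp away (chr15:74991900-74993029) had 53.7, 43.9 and 40.2 in WT and 70.0 and 68.0 in AHR KO. This one did not overlap, with a difference of 0.60 (SE 0.17, adjusted p = 0.26) that passed without WT replicate 1 (0.70, adjusted p = 0.0103). *Clu*, clusterin, a marker of revival stem cells, had 38.2, 42.9 and 40.9 at its promoter in WT and 49.9 and 50.8 in AHR KO (0.31, SE 0.17, adjusted p = 0.484).

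Extracellular matrix and adhesion genes held 95 regions, 41.1% above WT and 8.42% below, with a median of 0.15. *Actn1*, an actin crosslinker, had 41.8, 47.5 and 59.7 fragments in WT and 77.6 and 77.1 in AHR KO (0.66, SE 0.17, adjusted p = 0.24, and 0.0409 without WT replicate 1). *Tns4*, a tensin at focal adhesions, had 65.6, 84.8 and 96.2 in WT and 52.2 and 50.9 in AHR KO, the opposite direction (−0.66, SE 0.17, adjusted p = 0.236, and 0.00157 without WT replicate 1). In 6 lists both AHR KO library medians were above all WT library medians: these 2 of matrix and fetal-like genes, and those of Wnt and stem cell genes, intestinal identity factors, ETS factors and the Hippo pathway. By fold enrichment the medians of fetal-like and matrix genes were −0.06 and −0.03, those of the Hippo pathway, ETS and identity factors −0.03, −0.02 and −0.04, and that of Wnt and stem cell genes 0.02. The sign of 5 of these 6 lists thus turned with the measure. Over all regions fold enrichment, set to a common distribution in the same way, gave 15.7% above and 18.0% below, and for fetal-like genes 16.1% and 22.6%.

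Wnt targets and stem cell genes held 75 regions with a median of 0.12, 28.0% above WT and 5.33% below. Without WT replicate 1, 3 of the 75 were higher and none lower, against 1.43% and 1.83% of all regions. *Lgr5*, the R-spondin receptor of crypt stem cells, had 27.2, 26.5 and 26.3 fragments at its start region, centred in an intron, in WT and 33.7 and 27.6 in AHR KO (0.20, SE 0.19, adjusted p = 0.728). *Ascl2*, the Wnt-driven stem cell factor, had at its start region 33.3, 21.1 and 18.5 in WT and 26.0 and 26.6 in AHR KO, so WT replicate 1 was above both (0.16, SE 0.24, adjusted p = 0.831). *Sox9*, a factor of stem and progenitor cells, had at its start region 47.5, 47.3 and 35.9 in WT and 54.1 and 62.5 in AHR KO (0.43, SE 0.18, adjusted p = 0.391).

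*Ccnd1*, cyclin D1, had a region at chr7:144970776 with 35.4, 35.1 and 31.1 fragments in WT and 57.7 and 54.5 in AHR KO. The difference of 0.73 (SE 0.17, adjusted p = 0.2) passed without WT replicate 1 (0.76, adjusted p = 0.0124). Cell cycle genes together had a median of 0.11 over 39 regions, with 33.3% above and 7.69% below. By fold enrichment it was −0.01, with 15.4% above and 20.5% below, so its sign turned too.

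**Figure D5:**
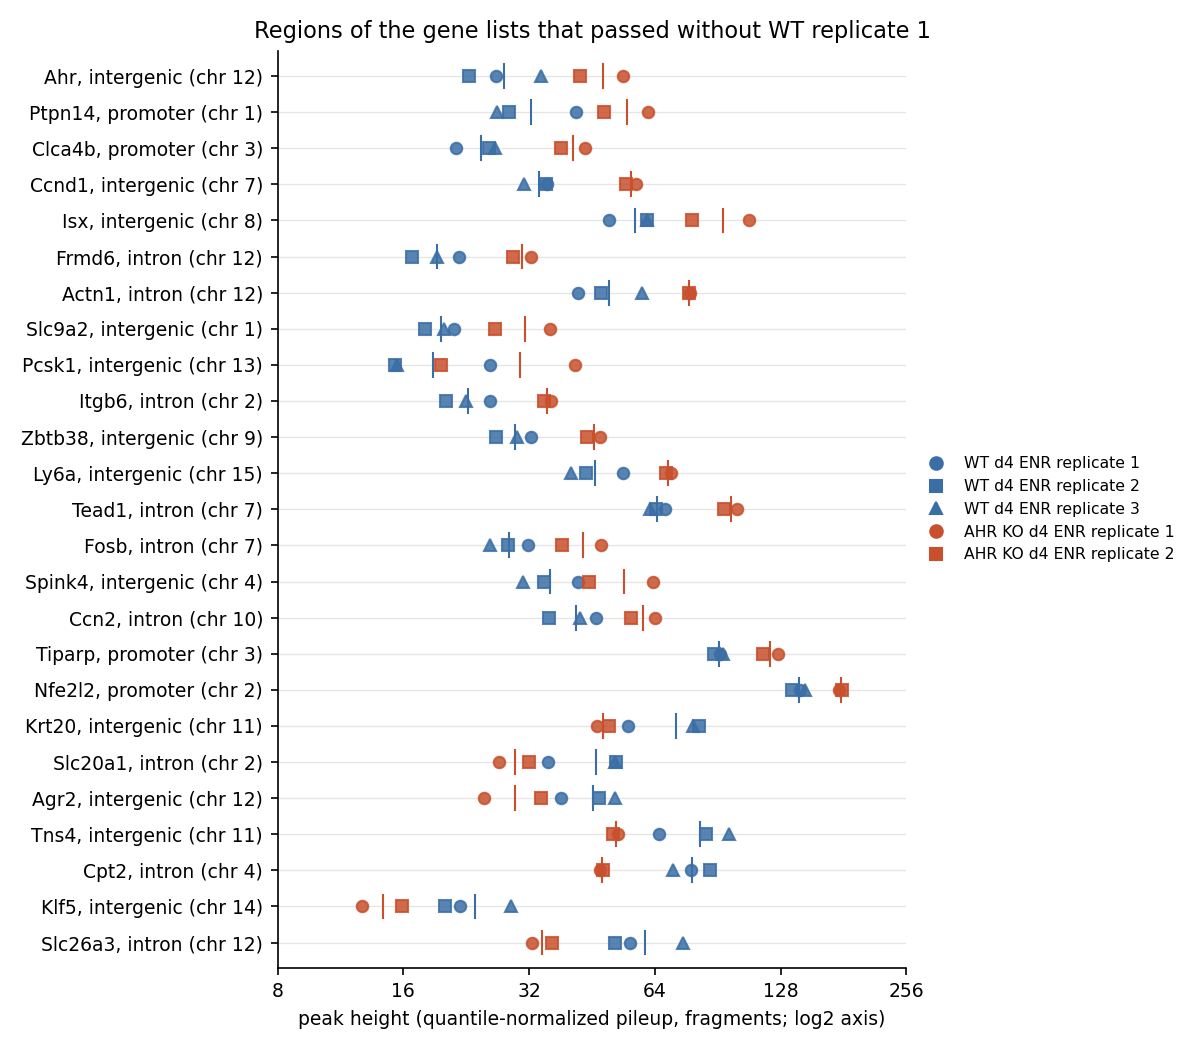
Normalized height in fragments (log2 axis) of each d4 ENR library at named regions of list members that passed without WT replicate 1, with a vertical tick at the mean of each genotype. *Tead1*, *Ccnd1* and *Ly6a* regions lie above WT in both AHR KO libraries and *Slc26a3* and *Krt20* regions below, and none of these passed with all 5 libraries.

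Absorptive genes had a median of −0.09 over 85 regions, 14.1% above WT and 20.0% below. Without WT replicate 1, 6 of the 85 were lower and 1 was higher, against 1.83% and 1.43% of all regions. The 6 lower regions were all given to *Slc26a3*, *Slc20a1* or *Krt20*, with more than 1 at some of these genes. The library medians were −0.10, 0.06 and 0.10 in WT and −0.05 and −0.05 in AHR KO, so WT replicate 1 lay below both AHR KO libraries. *Slc26a3*, the chloride-bicarbonate exchanger of surface colonocytes, had 59.3, 66.2 and 79.2 fragments at its start region, which lies at a start inside the gene (chr12:31437079-31440003, intron), in WT and 44.8 and 44.3 in AHR KO. Both AHR KO values were below WT, a difference of −0.60 (SE 0.17, adjusted p = 0.251) that passed without WT replicate 1 (−0.68, adjusted p = 0.0115). A second region of this gene, at chr12:31428391-31429325, had 55.8, 51.3 and 75.0 in WT and 32.6 and 36.2 in AHR KO (−0.80, SE 0.19, adjusted p = 0.2, and 0.00799 without WT replicate 1). *Slc26a3* lies on chromosome 12, within the 15 Mb around *Ahr* described above.

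*Krt20*, a keratin of differentiated cells, had no start region called in all 5 libraries. A region 20963 bp from its start (chr11:99458855-99459371) had 55.3, 81.4 and 78.9 fragments in WT and 46.6 and 49.8 in AHR KO. The difference was −0.56 (SE 0.18, adjusted p = 0.308) and passed without WT replicate 1 (−0.71, adjusted p = 0.00537). *Slc20a1*, a phosphate transporter, had 35.6, 51.7 and 51.4 in WT and 27.1 and 32.0 in AHR KO (−0.63, SE 0.21, adjusted p = 0.31, and 0.0113 without WT replicate 1). The 1 region that was higher without WT replicate 1 was that of *Slc9a2*, a sodium-proton exchanger, with 21.1, 18.0 and 20.0 in WT and 35.9 and 26.5 in AHR KO (0.65, adjusted p = 0.295, and 0.048 without WT replicate 1). *Car4*, carbonic anhydrase 4, had no start region in any d4 ENR library.

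Other lineages gave few regions. Goblet genes had a median of −0.01 over 38 regions, with 13.2% above and 13.2% below. *Agr2*, a protein disulfide isomerase of goblet cells, on chromosome 12 within 15 Mb of *Ahr*, had 38.1, 47.2 and 51.5 fragments in WT and 25.0 and 34.1 in AHR KO at chr12:35983209 (−0.63, SE 0.20, adjusted p = 0.301, and 0.0232 without WT replicate 1). *Clca4b*, of the same list, had 21.3, 25.7 and 26.6 at its promoter in WT and 43.5 and 38.2 in AHR KO (0.74, SE 0.19, adjusted p = 0.24, and 0.0484 without WT replicate 1). *Muc2*, the main gut mucin, was called at its promoter in every library but WT replicate 1, with pileups of 11.9 and 12.8 in WT and 19.7 and 16.6 in AHR KO. *Chga*, the enteroendocrine marker, was called at its start region in 3 libraries. Enteroendocrine genes had a median of 0.05 over 14 regions and tuft genes of −0.08 over 12.

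Intestinal identity factors held 106 regions with a median of 0.11, of which 34.9% lay above WT and 8.49% below. Without WT replicate 1, 4 of the 106 were higher and 3 lower, against 1.43% and 1.83% of all regions. *Cdx2*, the homeobox factor of intestinal identity, had 68.3, 72.5 and 59.4 fragments at its start region, centred in an intron, in WT and 96.8 and 65.7 in AHR KO. Its AHR KO libraries disagreed, with 1 inside the range of WT (0.26, SE 0.18, adjusted p = 0.58). *Hnf4a* and *Rxra*, nuclear receptors, had differences of 0.03 (SE 0.17, adjusted p = 0.962) and 0.12 (SE 0.19, adjusted p = 0.845), with overlapping values at the start regions of both.

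Single regions of identity factors lay apart in either direction, with *Isx* above and *Klf5* below. *Isx*, a homeobox repressor of vitamin A uptake, had 49.6, 61.2 and 61.3 fragments in WT and 108 and 78.4 in AHR KO (0.69, SE 0.17, adjusted p = 0.223, and 0.0244 without WT replicate 1). *Klf5*, a factor of proliferating crypt cells, had 21.9, 20.1 and 29.0 in WT and 12.7 and 15.9 in AHR KO (−0.72, SE 0.21, adjusted p = 0.28, and 0.0356 without WT replicate 1).

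ETS family factors had a median of 0.11 over 57 regions, 31.6% above WT and 3.51% below. *Ets1* had 15.5, 17.2 and 17.3 fragments in WT and 30.0 and 24.9 in AHR KO at chr9:32705585 (0.72, SE 0.19, adjusted p = 0.246, and 0.053 without WT replicate 1). AP-1 genes had a median of −0.02 over 39 regions, with 23.1% above and 25.6% below. Gastric and oesophageal genes, with 10 regions, had a median of −0.02.

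Metabolic and ribosomal genes served as further lists. Fatty acid oxidation and peroxisome genes had a median of 0.00 over 56 regions. One region of *Cpt2*, the mitochondrial carnitine palmitoyltransferase, had 78.0, 86.8 and 70.9 fragments in WT and 47.4 and 48.2 in AHR KO (−0.71, SE 0.15, adjusted p = 0.154, and 0.00824 without WT replicate 1). Ribosomal protein genes had a median of −0.11 over 36 regions, with 2.78% above and 25.0% below. Their library medians were 0.18, 0.05 and −0.14 in WT and −0.07 and −0.11 in AHR KO, so WT replicate 3 was below both AHR KO libraries. The list's median without WT replicate 1 was 0.01, so its direction rested on that library.

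Presence and absence of peaks were counted apart from height. Of 66344 regions, 2435 were called in both AHR KO and no WT library (3.67%) and 74 in all WT and no AHR KO library (0.112%). When every list was reduced to its top 33433 peaks, these counts were 710 and 287. A further 8935 regions were missing in WT replicate 1 alone, against 37 to 472 in each of the other 4. Of the 74 WT-only regions, 14 lay on chromosome 12 (18.9%, against 3.92% of all called regions), and of the 2435 AHR KO-only regions 4.97% did.

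AHR KO-only regions made up 7.02% of the regions of matrix genes (17 of 242), 7.30% of those of ETS factors (10 of 137), 6.35% of those of fetal-like genes (8 of 126) and 5.82% of those of Wnt and stem cell genes (11 of 189), against 3.67% of all. The share was 12.5% for enteroendocrine genes (5 of 40) and 6.35% for the Hippo pathway (8 of 126). It was nearer to that of all regions for YAP/TEAD targets (4.38%, 7 of 160), AHR pathway genes (4.65%, 4 of 86), cell cycle genes (4.29%, 3 of 70), goblet genes (4.26%, 4 of 94), tuft genes (3.70%, 1 of 27) and identity factors (3.69%, 8 of 217). It was lower for ribosomal genes (3.17%, 2 of 63), AP-1 genes (2.82%, 2 of 71), absorptive genes (1.11%, 2 of 180) and fatty acid oxidation genes (1.05%, 1 of 95). Gastric genes, epithelial markers and markers of other cell types had none. The AHR KO-only regions of list members that ranked highest were an intron of *Hnf4g* (chr3:3556200-3556989, pileup 20.5 and 22.7), the promoter of *Msln*, mesothelin (chr17:25753767-25754712, pileup 31.6 and 31.1), and a region given to *Ets1* (chr9:32711056-32712093, pileup 27.8 and 26.5). The last was classed as a promoter by a start of another gene, and lay 15190 bp from the nearest *Ets1* start. The percentiles of these regions within the lists ran from 41.5 to 49.2, near the middle.

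The WT-only regions of list members were 3 in number. At *Asap1*, an ARF GTPase-activating protein (chr15:64256397-64259478), the pileup was 13.9, 26.6 and 29.1. At the promoter of *Fn1*, fibronectin (chr1:71652567-71653854), it was 12.1, 9.39 and 10.0, with percentiles of 5.60 and 1.27 in WT replicates 2 and 3, close to the end of the lists. The third lay at *Lama3*, a laminin chain. The *Msln* and *Fn1* promoters had a peak in each of the 5 WENR libraries.

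Motifs were counted as matches to a string on both strands of each region. CATTCC (TEAD) was in 56.5% of all 29185 regions, in 61.9% of those with AHR KO above WT and in 54.8% of those with AHR KO below. The regions above were also wider, with a median of 1523 bp against 1288 bp below. Within the narrower regions the median difference was −0.01 with the motif and −0.04 without it, and within the wider it was 0.03 with and 0.03 without. TGANTCA (AP-1) was in 46.5% of all regions, 49.4% of those above and 46.5% of those below. TNGCGTG (AHR:ARNT) was in 21.2%, 22.3% and 20.4%, and CCGGAAGT (ETS) in 6.64%, 6.19% and 6.09%. A match describes the letters of a region and not the binding of a factor.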

How the data were processed

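Omni-ATAC-seq peak lists of the 5 d4 ENR libraries (3 WT, 2 AHR KO) were compared, and those of the 5 WENR libraries were used to merge regions and to set values side by side. Groups came from the sample labels. Members and gene lists were chosen with earlier results of these data known. The authors trimmed reads with Trim Galore, ran BWA against GRCm38 as part of nf-core/atacseq, and made a broad peak list for each library with MACS 2.2.7.1, without pooling or control (q of 0.1 broad, 0.05 narrow, background window 10000 bp). The deposited pileup is a coverage signal in fragments, not scaled for depth. The deposited fold enrichment is its ratio to the local background of the library, and the deposited −log10 p and −log10 q values are scores of the caller.

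Peaks of all 10 libraries were merged where they shared at least 1 bp. At regions called in all 5 d4 ENR libraries, log2 pileup of the highest peak was quantile-normalized and tested with limma 3.58.1 (lmFit, eBayes with trend, no covariate) in R 4.3.3, Benjamini-Hochberg adjusted over the 29185 regions. The count test of the study's methods was not run, since counts per region were not used here. A region was given to the nearest protein-coding start within 100 kb (GENCODE M21). Its midpoint classed it as promoter, exon, intron or intergenic by genes of any type, so the class need not refer to the gene named. For single genes and markers, the start region was the highest region that touched the promoter window at any protein-coding start of the gene. Percent masked, motifs and sequences came from GRCm38.p6. Named regions were up to 10 per direction that passed without overlap, filled by the lowest p. Named genes were 20 chosen from the study and up to 4 members per list with the lowest p, of which some are given here. For presence, the 3 highest ranking list members' regions per genotype were named. Some genes that the rule covers are not reported here. In simulated heights for 29185 regions of this comparison, 98% of 100 regions changed by 1 on the log2 scale and 100% of 100 changed by 2 were recovered, and 10 unchanged regions were called. The simulated noise was independent, with an SD smoothed over height, and no library stood apart as WT replicate 1 did. These shares therefore do not give the recovery in the data, where a *Rock2* region with a difference of 1.36 did not pass (adjusted p = 0.0683 by limma). Other normalizations, measures, filters, covariates and left-out libraries were tried. Leaving out chromosome 12, the medians of the gene lists under the alternatives and their counts without WT replicate 1 were added after the data were seen. Python 3.11.15, numpy 2.4.6, pandas 2.3.3 and matplotlib 3.10.9 were used. Depth was 30354729 fragments or more per library.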

Additional observations from a re-analysis of the deposited data

Results flagged for a closer look

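Up to 4 regions of members were named for a low p in each of 19 lists. At 12 of these every AHR KO library lay on one side of every WT library in d4 ENR and on the other in WENR. The difference between the media was not tested. Such reversals were not particular to list members. Over all regions, 968 of 4804 with AHR KO above WT in d4 ENR were below in WENR (20.1%), and 569 of 3755 below in d4 ENR were above (15.2%). Of the 12, AHR KO was above WT in d4 ENR and below in WENR at *Itga2* (0.53 and −0.13), *Gata6* (0.61 and −0.16), *Ahr* at chr12:35481662 (0.79 and −0.16), *Etv6* (0.64 and −0.30), *Elf2* (0.50 and −0.16), *E2f8* (0.24 and −0.16) and *Pparg* (0.47 and −0.36). AHR KO was below WT in d4 ENR and above in WENR at *Sh2d6* (−0.49 and 0.23), *Krt13* (−0.32 and 0.19), *Atf3* (−0.51 and 0.35), *Ccne1* (−0.40 and 0.08) and *Rpl14* (−0.28 and 0.12). All values are log2 AHR KO minus WT in normalized height.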

How the results depend on the processing

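The counts of 2 higher and 10 lower regions were small under most settings and large under a few. They were 1 and 8 with median centring, 6 and 18 with cyclic loess, 0 and 0 with summed coverage, 9 and 7 with fold enrichment, 4 and 30 with −log10 p, and 0 and 0 with within-list percentile. They were 1 and 8 with a consensus of the 5 libraries, 1 and 5 with exactly 1 peak a region, 1 and 3 with a −log10 q of at least 5, 1 and 5 with lists of equal length, 1 and 0 with regions called in both AHR KO and at least 2 WT libraries, 1 and 0 without a trend, 1 and 7 with GC and width as covariates, 1 and 5 on autosomes, and 0 and 0 without chromosome 12 (added after the data were seen). Scaled to fragments and not centred, 10739 were higher and 4 lower, since this moves the median of all regions by 0.68. With the share of coverage in peaks as a covariate they were 448 and 818. Leaving out a library gave 0 to 416 higher and 0 to 533 lower: 416 and 533 without WT replicate 1, 21 and 70 without WT replicate 3, 0 and 0 without WT replicate 2 or AHR KO replicate 2, and 0 and 1 without AHR KO replicate 1. The labels number the replicates but name no shared litter or line. Deviations from the genotype's mean at each region correlated at 0.257 and 0.157 between same-numbered libraries, over only 2 pairs. The deviations of the 2 AHR KO libraries are equal and opposite, so these 2 values are not independent and cannot decide whether replicates were paired. With the replicate number as a block the counts were 1107 and 1086, and 1032 and 1162 with the replicate block, GC and width. By limma, under an unadjusted p of 0.05 there were 2887 regions with summed coverage, 2272 with percentile, 3203 without chromosome 12, 1909 without WT replicate 2 and 2364 without AHR KO replicate 2. The cause of these changes was not tested.

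The median at promoters and that at other regions, 0.00 each, were 0.70 and 0.68 scaled to fragments, 0.0736 and 0.0683 with regions called in at least 2 WT libraries, and 0.0863 and −0.0273 with the coverage covariate. The promoter median was −0.0627 with summed coverage, and that at other regions was −0.0613 with median centring. AHR KO-only regions numbered 710 with equal lists, 5063 with at least 50% of the region covered, and 2592 to 7276 with a library left out. WT-only regions numbered 287 with equal lists, 13 with a −log10 q of at least 5, and 111 to 718 with a library left out (718 without WT replicate 1). Values reversed at 4 named regions: the *Ahr* promoter (0.67, scaled to fragments), *Saysd1* (0.13, summed coverage), *Hif1a* (0.00275, fold enrichment) and *Sfi1* (0.11, fold enrichment). Of the other values at named regions and genes, 567 kept direction and side of the threshold, 129 lost the threshold, 67 gained it and 24 moved. An absent peak shows only that the caller's threshold was not reached at that library's depth and share of coverage in peaks.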
